A study of Arabidopsis thaliana with 71 samples.

Results

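The class II homeodomain-leucine zipper (HD-ZIP II) genes of Arabidopsis thaliana were followed through a time course of induced leaf and meristem transcription factors. The genes were chosen by locus identifier: HAT1 (AT4G17460), HAT2 (AT5G47370), HAT3 (AT3G60390), ATHB2 (AT4G16780), ATHB4 (AT2G44910), HAT9 (AT2G22800), HAT14 (AT5G06710), HAT22 (AT4G37790), ATHB17 (AT2G01430) and ATHB18 (AT1G70920). All 10 had an entry among the 22332 genes of the deposited expression table, and none was absent. The samples were whole seedlings of the Columbia accession, 7 days old, raised in flasks of liquid MS medium and frozen 0, 30, 60 or 120 min after 50 µM dexamethasone was added. The 4 transgenic lines, GR-KAN1, GR-REV, GR-STM and GR-AS2, each carried 1 transcription factor fused to GR, and wild type (WT) was treated and sampled in the same way. GR is the steroid-binding region of a mammalian receptor, which holds a fusion protein in the cytoplasm until dexamethasone is given. GR-AS2, GR-STM and GR-KAN1 had 3 libraries at each time, GR-REV had 2 at 30 min and 3 at the other times, and WT had 6 at each time, 71 libraries in all. The submitters call all replicates biological. Every flask received dexamethasone, so 0 min stands in for an untreated sample, and no group given solvent alone was analysed here. The sources used here do not give the promoter that drives each fusion, the number of independent transformants per line or the alleles of the endogenous genes. The labels name the KANADI1 fusion both with GR in front and with GR behind.

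HD-ZIP II proteins bind DNA as dimers through a homeodomain followed by a leucine zipper, and carry a repression motif that makes most of them repressors of transcription. The family is best known for shade avoidance, in which ATHB2 RNA accumulates within minutes when the ratio of red to far-red light falls. HAT1, HAT2, HAT3, ATHB2 and ATHB4 are also known in leaf polarity, where they act on the upper (adaxial) side together with the class III homeodomain-leucine zipper (HD-ZIP III) proteins such as REVOLUTA (REV). Of the other induced factors, KANADI1 (KAN1) is a GARP protein known for specifying the lower (abaxial) leaf side, AS2 is a LOB-domain protein known on the upper side, and SHOOT MERISTEMLESS (STM) is a KNOX factor that keeps shoot meristem cells undifferentiated.

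In the TAIR10.1 annotation of RefSeq the genes lie on chromosome 1 (ATHB18), chromosome 2 (ATHB4, HAT9 and ATHB17), chromosome 3 (HAT3), chromosome 4 (HAT1, ATHB2 and HAT22) and chromosome 5 (HAT2 and HAT14). HAT2 spans chr5:19216271-19218007 on the minus strand, ATHB2 chr4:9449114-9450905 on the plus strand and HAT3 chr3:22320580-22322661 on the minus strand, each with 4 exons. No other annotated gene overlapped any of the 10, nor the 300 bases upstream of their annotated starts. The most alike coding sequences were those of HAT9 and HAT22, 80.7% identical, followed by HAT1 and HAT2 at 77.3% and HAT3 and ATHB4 at 76.4%. The longest run of identical mRNA bases in these pairs was 35, 38 and 26 bases, so short reads that lie wholly in such a run could be shared between the 2 genes of a pair. The upstream sequences of HAT2, ATHB2 and HAT3 are printed because these genes were called at more than 1 time in GR-REV or GR-STM. Each is the 300 bases before the annotated start, 5′ to 3′ on the gene's own strand, with ATGAT on either strand in capitals. ATGAT is the core of a binding site described for HD-ZIP III proteins. The HAT2 window is chr5:19218008-19218307 (minus strand), the ATHB2 window chr4:9448814-9449113 (plus strand) and the HAT3 window chr3:22322662-22322961 (minus strand).
HAT2: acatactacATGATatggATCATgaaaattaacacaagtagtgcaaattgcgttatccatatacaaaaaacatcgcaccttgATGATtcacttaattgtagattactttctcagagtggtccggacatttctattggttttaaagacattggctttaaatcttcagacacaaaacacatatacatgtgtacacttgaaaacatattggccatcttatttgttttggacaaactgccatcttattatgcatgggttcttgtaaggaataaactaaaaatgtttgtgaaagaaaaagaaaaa
ATHB2: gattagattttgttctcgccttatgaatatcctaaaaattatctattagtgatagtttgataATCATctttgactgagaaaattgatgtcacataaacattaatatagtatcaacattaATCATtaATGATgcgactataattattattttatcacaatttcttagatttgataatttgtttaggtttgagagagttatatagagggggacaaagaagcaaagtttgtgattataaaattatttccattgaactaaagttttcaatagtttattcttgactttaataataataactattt
HAT3: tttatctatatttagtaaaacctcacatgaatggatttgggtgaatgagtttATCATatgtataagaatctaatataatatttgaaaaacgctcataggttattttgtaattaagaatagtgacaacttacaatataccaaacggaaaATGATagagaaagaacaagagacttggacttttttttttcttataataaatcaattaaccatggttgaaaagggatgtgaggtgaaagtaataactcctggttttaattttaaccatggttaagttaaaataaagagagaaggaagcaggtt
HAT2 and ATHB2 had 3 matches each and HAT3 had 2. The same 5 letters occurred in 65.1% of the 27443 protein-coding windows of this length and in 8 of the 10 HD-ZIP II windows, all but those of ATHB17 and ATHB18. The palindrome CAATNATTG, described for HD-ZIP II proteins, and the longer palindrome described for HD-ZIP III proteins were in 1.14% and 0.0547% of all windows and in 0 of the 10. The KNOX site TGACAG was in 6.88% of windows and in that of ATHB4. GAATAT, a KANADI core, was in 26.7% of windows and in those of ATHB2, HAT9, HAT14 and HAT22. The G-box CACGTG was in 7.09% of windows and in those of HAT14 and ATHB17, and the auxin response element TGTCTC was in 13% and in 0 of the 10. All were searched on both strands, and a match describes the letters of the window only.

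Levels are in FPKM, fragment numbers scaled to gene length and to the size of each library, so genes can be set beside each other. Over the 24 WT libraries HAT2 had 11.6 ± 1.62 FPKM and HAT1 11.3 ± 2.65 FPKM (SD). ATHB2 followed with 5.81 ± 1.08 FPKM, HAT22 with 5.01 ± 1.25 FPKM and HAT3 with 4.71 ± 0.916 FPKM, and HAT14 had 1.6 ± 0.399 FPKM. The 4 remaining genes lay under 1 FPKM on average: ATHB17 at 0.531 ± 0.263, ATHB4 at 0.510 ± 0.183 and HAT9 at 0.472 ± 0.171 FPKM, and ATHB18 between 0 and 0.807 FPKM with a median of 0.261. HAT2 and HAT1 did not differ beyond the larger of their SDs, nor did neighbours in the order ATHB2, HAT22 and HAT3, nor neighbours among the 4 lowest genes. HAT1 and ATHB2 were separated by 2.07 times the larger SD, HAT3 and HAT14 by 3.39 times and HAT14 and ATHB17 by 2.68 times. Tests used limma on log2(FPKM + 0.5) over the 19406 genes with a mean of at least 1 FPKM in some group. HAT9 and ATHB18 reached that mean in no group and were not in these tests, which leaves 8 of the 10 genes. ATHB4 entered only through GR-REV at 60 min and GR-KAN1 at 30 min, and ATHB17 only through GR-AS2 at 60 min, so counts over the genes tested are descriptions of a list that the levels helped to choose. Because seedlings were sampled whole, fewer cells with a transcript and less transcript per cell cannot be told apart.

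**Figure D1:**
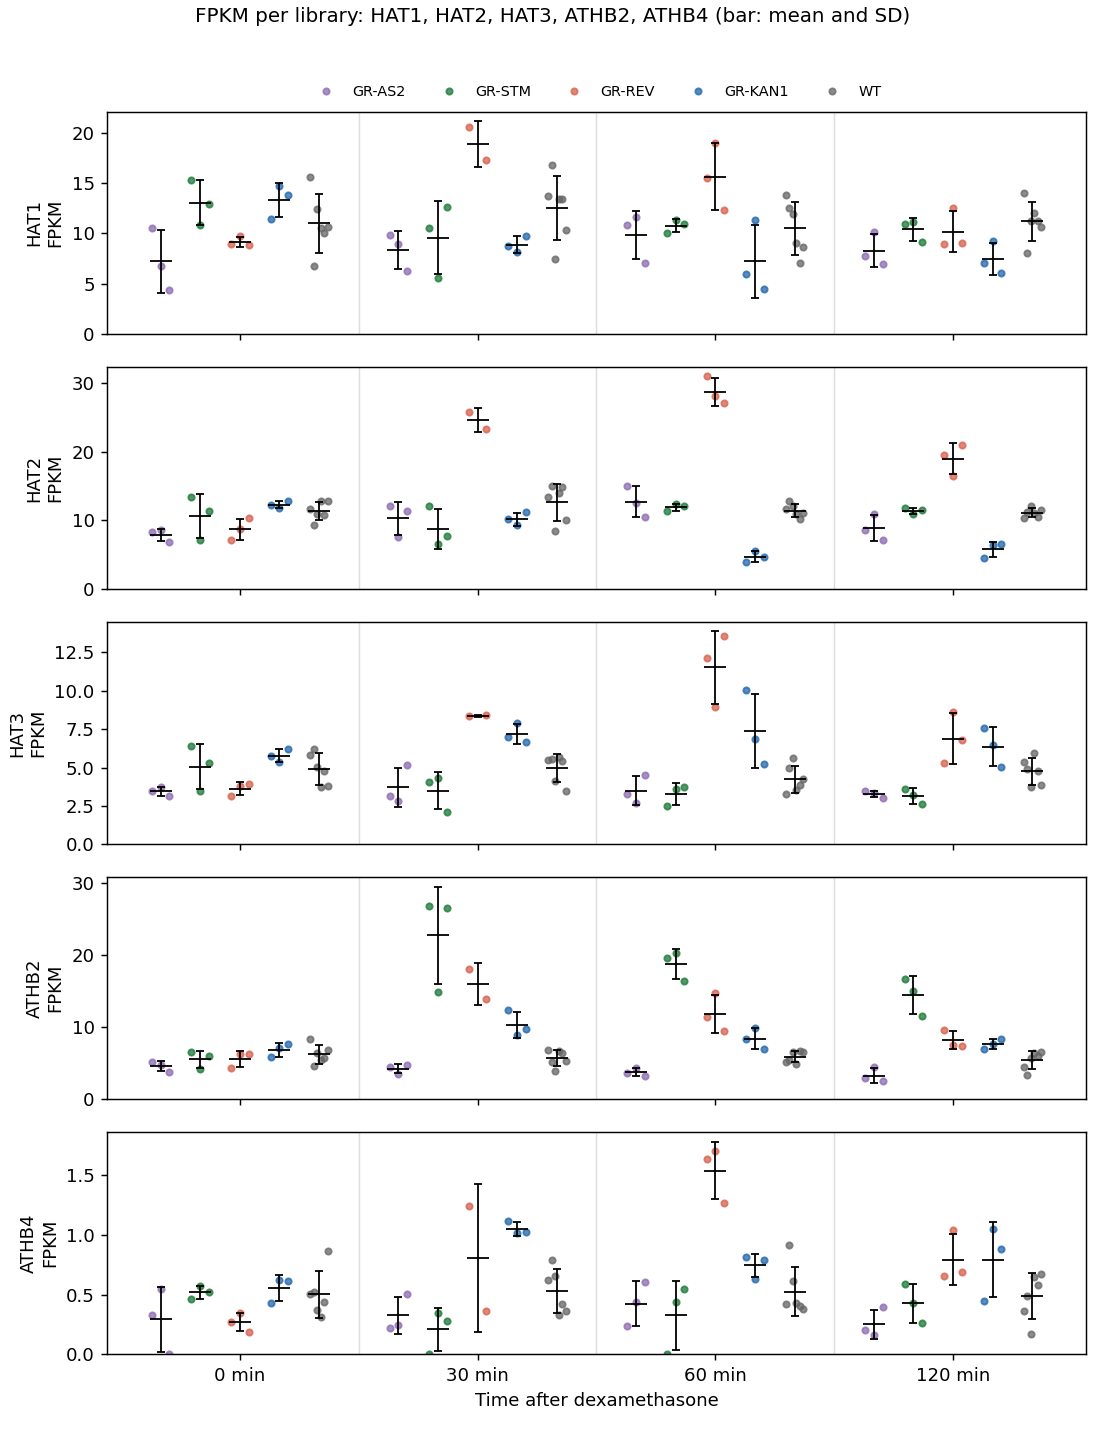
FPKM of HAT1, HAT2, HAT3, ATHB2 and ATHB4 in each of the 71 libraries, by time after dexamethasone, with a point per library and a bar for the group mean and its SD. HAT2 in GR-REV stands above every WT library at 30, 60 and 120 min, and ATHB2 is highest in GR-STM, at 26.8 FPKM in a 30 min library.

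The induced gene was high in its own line throughout, at 120 to 425 FPKM for AS2, 66.7 to 342 for STM, 46.1 to 168 for REV and 99.4 to 462 for KAN1, and never above 7.55 FPKM in another line. Green-tissue and root markers were present in every library, with RBCS3B at 2575 FPKM or more and the root regulator SCR at 6.34 to 14.5 FPKM, and the flower genes AP3, PI and AG did not pass 2.62 FPKM. Other root genes varied more, with PYK10 at 707 to 16094 FPKM and EXPA7 at 1.73 to 19.7 FPKM. The summed root markers, nearly all of which is PYK10, reached 16129 FPKM in GR-AS2 at 0 min, against at most 5050 FPKM in WT at 0 min. The seed markers, summed over the 2 of 3 that had an entry, were 4.40 to 10.5 FPKM in GR-REV at 0 min, against at most 3.11 FPKM in WT at 0 min. In WT at 120 min the same sum reached 17.5 FPKM. The part of these differences in the results was not tested. The green-tissue marker RBCS1A was listed at 0 in 58 libraries and LHCB1.3 in 8, so a listed 0 can be a failed estimate. The 59 libraries of the GR lines and of WT replicates 1 to 3 carry codes of 1 series (Ot79). WT replicates 4 to 6 carry those of other series (Ot86 and OtA0), and what the codes stand for is not stated. Code series was a term of the model, and values without WT replicates 4 to 6 lie within series Ot79. On the main axis of the residuals, which held 15.1% of their variance, 5 libraries stood furthest out. They were replicate 3 of GR-KAN1, replicate 3 of GR-REV, replicate 2 of GR-STM and replicate 1 of GR-AS2, all at 0 min, and replicate 3 of GR-AS2 at 60 min. Each GR line thus has such a library at its own baseline. Results that lose their call without these 5, or without WT replicates 4 to 6, are given with those values.

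A gene was called at a limma adjusted p under 0.05, two-sided and adjusted over all genes tested. In WT no HD-ZIP II gene was called after dexamethasone, against a background of 0.0567% of all genes tested at 30 min, 0.0258% at 60 min and 0.0670% at 120 min. Before adjustment 1, 1 and 2 of the 8 genes had a p under 0.05, as did 5.16%, 4.08% and 8.34% of all genes tested. The largest of these values was that of ATHB17 at 60 min, a log2 difference of 0.50 (limma adjusted p = 1.00), and HAT22 had 0.41 at 30 min and 0.43 at 120 min. At 0 min no HD-ZIP II gene was called in GR-STM (background 0.330%), GR-REV (7.81%) or GR-KAN1 (0.742%) against WT. Before adjustment 1, 4 and 0 of the 8 had a p under 0.05, as did 6.32%, 21.6% and 8.82% of all genes tested. In GR-REV the median log2 difference of the 8 from WT was -0.38, against -0.003 for all genes tested, and 2 of the 8 were above 0. The changes beyond WT in GR-REV are counted from these levels, and the part of this baseline in them was not tested.

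In GR-AS2 at 0 min 3 of the 8 genes tested were lower than in WT, against 5.60% of all genes tested lower and 10.3% called in either direction. HAT1 had 10.6, 6.71 and 4.35 FPKM in GR-AS2, against 6.71 to 15.6 FPKM with a median of 10.6 in WT. HAT2 had 8.30, 8.56 and 6.85 FPKM in GR-AS2, against 9.27 to 12.8 FPKM with a median of 11.3 in WT. HAT3 had 3.49, 3.72 and 3.13 FPKM in GR-AS2, against 3.70 to 6.22 FPKM with a median of 4.93 in WT. The HAT2 libraries did not overlap with WT. The highest HAT3 library of GR-AS2 and its HAT1 libraries at 10.6 and 6.71 FPKM fell within the WT range. The log2 differences were -0.77 (SE 0.25) for HAT1, -0.52 (SE 0.17) for HAT2 and -0.61 (SE 0.20) for HAT3, with limma adjusted p of 0.0380, 0.0409 and 0.0397. Within code series Ot79 all 3 calls were lost, at -0.65, -0.40 and -0.65 with limma adjusted p of 0.221, 0.261 and 0.114. Over all genes tested, 2000 were called in this comparison, 304 within code series Ot79 and 25 without GR-AS2 0 min replicate 3. Without that library HAT1 was at -0.48, and no member was called, nor without GR-AS2 0 min replicate 2 or WT 0 min replicate 1. Leaving out single libraries kept the call in 2, 3 and 3 of 9 fits, with limma adjusted p up to 0.428 for HAT1, and across the other alternatives it ran up to 0.350, 0.261 and 0.132.

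The time course asks how each line changed from its own 0 min beyond the change in WT over the same time, written below as "beyond WT". The 12 comparisons share the WT libraries, and the 3 times of a line share its 0 min libraries, so they are not independent of each other. Changes are differences on the log2(FPKM + 0.5) scale, which understates the changes of low genes.

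In GR-REV the called members were all higher. HAT2 and ATHB2 were called at 30 min, HAT2, HAT3, ATHB2, ATHB4 and HAT14 at 60 min, and HAT2 and HAT3 at 120 min. That is 2, 5 and 2 of the 8 genes tested, against a background of 0.0412%, 0.721% and 0.464% of all genes called higher (0.0412%, 1.18% and 0.799% in either direction). The median log2 change of the 8 was 0.88, 1.22 and 0.88 at the 3 times, and that of all genes tested -0.01, 0.01 and 0.01.

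HAT2, an auxin-induced member in earlier work on seedlings, had 7.22, 8.69 and 10.3 FPKM in GR-REV at 0 min. At 30 min it had 25.8 and 23.3 FPKM, at 60 min 31.0, 28.2 and 27.1 FPKM, and at 120 min 19.5, 16.5 and 20.9 FPKM. Every library after dexamethasone was above every one at 0 min, and the highest WT library at any time had 15.0 FPKM. At 30, 60 and 120 min the change beyond WT was 1.39 (SE 0.25), 1.66 (SE 0.23) and 1.2 (SE 0.24), with limma adjusted p of 0.00331, 3.55e-06 and 0.00354. At 60 min this is a 3.16-fold change on that scale. The 60 min call held in all 18 fits that left out a library and under all 12 other alternatives, where it was 1.48 to 1.78. The 30 min call rests on GR-REV 30 min replicate 1 (limma adjusted p = 0.120 without it). Within code series Ot79 the changes were 1.28 and 1.01 at 30 and 120 min with limma adjusted p of 0.214 and 0.114, the highest over the alternatives.

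HAT3, which acts redundantly with ATHB4 in leaf polarity, had 3.12, 3.82 and 3.93 FPKM in GR-REV at 0 min, 8.34 and 8.40 at 30 min, 12.1, 8.92 and 13.6 at 60 min and 5.27, 8.61 and 6.76 at 120 min. All were above the 0 min libraries, and those at 30 and 60 min were above every WT library, the highest of which had 6.22 FPKM. The change beyond WT was 1.72 (SE 0.26) at 60 min and 1.09 (SE 0.28) at 120 min, with limma adjusted p of 2.94e-05 and 0.0426. At 30 min it was 1.24, not called (limma adjusted p = 0.130). The 120 min call was kept in 5 of 18 fits without a library, was lost without the 5 outlying libraries (1.14, limma adjusted p = 0.0561) and within code series Ot79 (1.10, 0.160), and ran up to 0.203 over the alternatives.

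ATHB4, the closest relative of HAT3 in the family, was near the bottom of the measured range. Its GR-REV libraries had 0.271, 0.345 and 0.190 FPKM at 0 min, 1.24 and 0.366 at 30 min, 1.64, 1.71 and 1.26 at 60 min, and 0.653, 1.04 and 0.686 at 120 min. The 60 min libraries were all above the 24 WT libraries, which reached 0.912 FPKM. At 60 min the change beyond WT was 1.37 (SE 0.31, limma adjusted p = 0.00965). GR-REV at 60 min is also a group through which ATHB4 entered the tests, so this call is descriptive. The call was lost without GR-REV 0 min replicate 3 (limma adjusted p = 0.0519), without the 5 outlying libraries, which include it (1.3, 0.0614), and within code series Ot79 (1.17, 0.183), the highest over the alternatives. With a pseudocount of 0.1 the change was 2.11, which was not called either.

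ATHB2, the classical shade-induced member, had 4.35, 6.29 and 6.21 FPKM in GR-REV at 0 min. It had 18.0 and 13.9 FPKM at 30 min, 11.4, 14.7 and 9.49 at 60 min, and 9.66, 7.51 and 7.42 at 120 min. The highest library of the line was at 30 min (18.0 FPKM), but the other at 30 min (13.9 FPKM) lay below the highest at 60 min (14.7 FPKM). No library after dexamethasone overlapped with 0 min. Changes beyond WT were 1.67 (SE 0.28) at 30 min and 1.07 (SE 0.25) at 60 min, with limma adjusted p of 0.00142 and 0.0140, and 0.89 at 120 min, not called (0.127). Without GR-REV 30 min replicate 1, which leaves 1 library in that group, the change was 1.49 and the 30 min call was lost. It was also lost where only the groups compared were fitted (limma adjusted p = 0.124, the highest over the alternatives). The 60 min call was lost without GR-REV 0 min replicate 1 or 60 min replicate 2 (limma adjusted p up to 0.0978) and within code series Ot79 (1.15, 0.101), the highest over the alternatives.

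HAT14, a member outside the clade of these 5, had 0.822, 1.40 and 1.41 FPKM in GR-REV at 0 min, 2.45 and 2.54 at 30 min, 5.89, 3.69 and 3.99 at 60 min, and 4.03, 2.68 and 3.00 at 120 min. The later libraries were above all 24 WT libraries, which reached 2.40 FPKM. The change beyond WT at 60 min was 1.63 (SE 0.25, limma adjusted p = 3.68e-05) and was called in all 18 fits without a library and all 11 alternatives. At 120 min it was 0.97, not called (limma adjusted p = 0.0760).

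HAT1 and HAT22 in GR-REV had values of the same sign that did not pass the test. HAT1 had 20.5 and 17.2 FPKM at 30 min, against 8.96, 9.69 and 8.80 FPKM at 0 min, and its change beyond WT was 0.96 (95% interval 0.22 to 1.69, limma adjusted p = 0.787). HAT22, whose RNA responds to cytokinin and abscisic acid in earlier work, had 15.3 and 13.7 FPKM at 30 min, against 6.52, 5.75 and 7.33 FPKM at 0 min. Its libraries did not overlap, and its own change from 0 min was called (1.10, limma adjusted p = 0.0469), but beyond WT it was 0.69 (95% interval 0.05 to 1.33, limma adjusted p = 0.870).

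**Figure D2:**
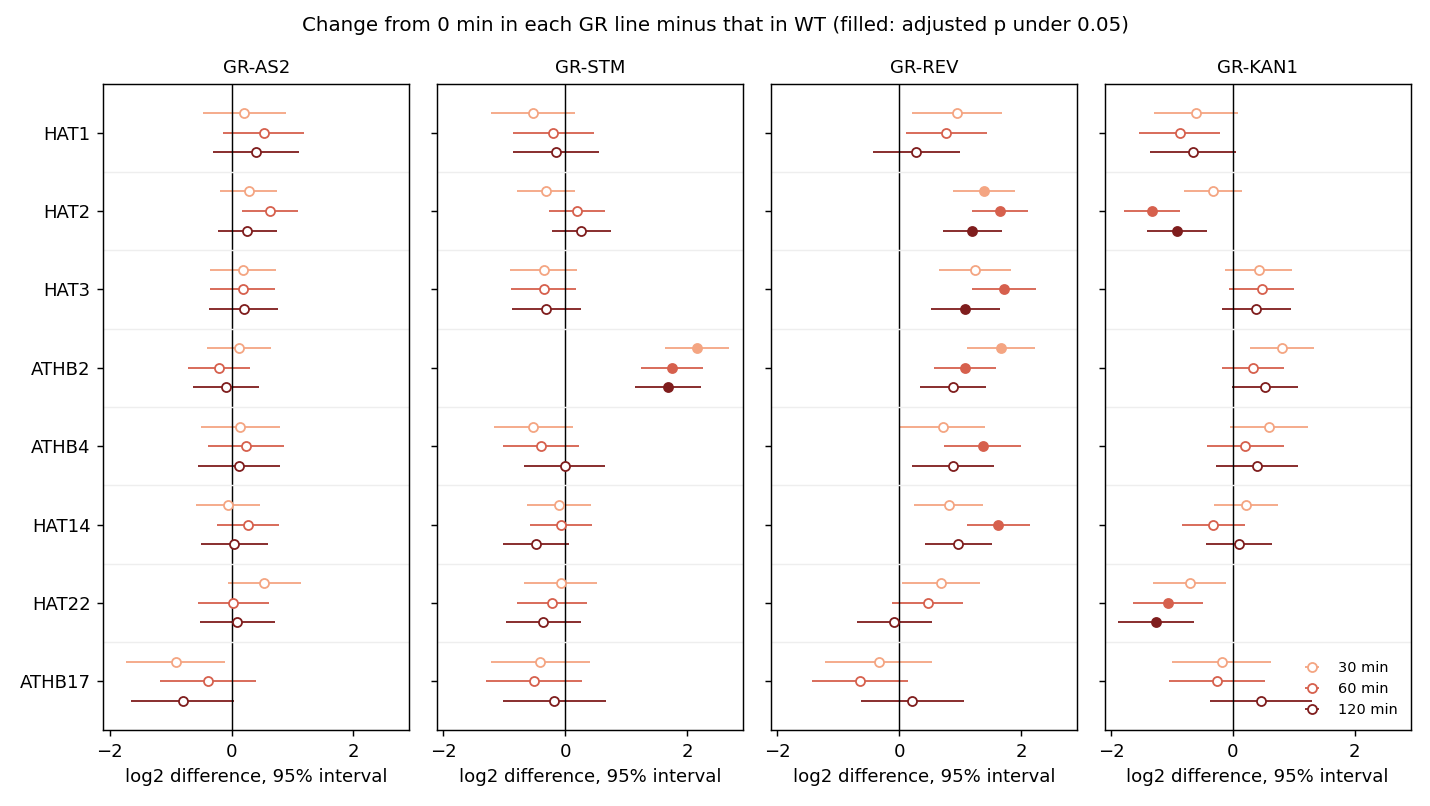
Change from 0 min beyond WT of the 8 genes tested in the 4 GR lines, as log2 differences with 95% intervals at 30, 60 and 120 min, with filled points for limma adjusted p under 0.05. ATHB2 alone is filled in GR-STM, 5 genes are filled in GR-REV at 60 min, HAT2 and HAT22 are filled to the left of 0 in GR-KAN1, and no point is filled in GR-AS2.

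In GR-STM ATHB2 was the 1 member called at each time. It had 26.8, 14.9 and 26.5 FPKM at 30 min, 19.6, 20.3 and 16.4 at 60 min and 16.7, 15.0 and 11.6 at 120 min, with 6.48, 4.12 and 5.94 FPKM at 0 min. The lowest library after dexamethasone was above the highest WT library, which had 8.31 FPKM. The changes beyond WT were 2.16 (SE 0.26), 1.76 (SE 0.25) and 1.69 (SE 0.27) at 30, 60 and 120 min, with limma adjusted p of 7.74e-07, 1.62e-05 and 6.05e-05. On this scale the 30 min change is 4.48-fold. The count of 1 of the 8 genes tested stands beside a background of 0.0206%, 0.495% and 0.587% of all genes called higher (0.144%, 0.876% and 0.819% in either direction). Each call held in all 18 fits that left out a library, within code series Ot79 (2.20, 1.83 and 1.77) and without the 5 outlying libraries (1.98, 1.58 and 1.51). The 30 min call was lost where only the groups compared were fitted (2.15, limma adjusted p = 0.193, the highest over the alternatives). The other 7 genes tested had changes between -0.53 and 0.26 at the 3 times. HAT2 in GR-STM had 11.4, 12.3 and 12.1 FPKM at 60 min, against 13.5, 7.09 and 11.3 FPKM at 0 min, which overlap.

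In GR-KAN1 HAT2 and HAT22 fell, and no member was called higher. Both were called at 60 and 120 min, against a background of 0.840% and 0.546% of all genes called lower (1.05% and 0.830% in either direction), and none at 30 min (0.0670%), where 2 of the 8 genes and 3.30% of all genes had an unadjusted p under 0.05. HAT2 had 10.1, 9.28 and 11.2 FPKM at 30 min, 3.93, 5.49 and 4.71 at 60 min, and 4.53, 6.36 and 6.55 at 120 min, with 12.2, 11.8 and 12.9 FPKM at 0 min. The 60 and 120 min libraries were below every WT library, the lowest of which had 8.46 FPKM. HAT2 changes beyond WT were -1.32 (SE 0.23) at 60 min and -0.92 (SE 0.24) at 120 min, with limma adjusted p of 0.000260 and 0.0495. The 60 min call held in all 18 fits without a library and under all 12 alternatives, at -1.50 to -1.24. The 120 min call was kept in 4 of 18 fits without a library (limma adjusted p up to 0.252) and was lost without the 5 outlying libraries (-0.89, limma adjusted p = 0.0671, the highest over the alternatives).

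HAT22 had 3.85, 3.00 and 4.28 FPKM in GR-KAN1 at 30 min, 3.12, 2.78 and 1.61 at 60 min, and 1.81, 3.00 and 2.47 at 120 min, with 4.54, 5.83 and 3.75 FPKM at 0 min. The 60 and 120 min libraries lay below those at 0 min. In WT, HAT22 had medians of 3.96, 5.31, 4.65 and 6.01 FPKM at 0, 30, 60 and 120 min, so part of the difference beyond WT is the WT change that it subtracts. The changes beyond WT were -1.07 (SE 0.29) at 60 min and -1.26 (SE 0.31) at 120 min, with limma adjusted p of 0.0498 and 0.0253. The own changes from 0 min were -0.81 and -0.83, with limma adjusted p of 0.0383 and 0.0358. Within code series Ot79 the changes beyond WT were -1.22 and -1.32 and not called (limma adjusted p = 0.106 and 0.0629), and the highest adjusted p over the alternatives were 0.124 and 0.0629. The 60 min call was kept in 5 of 18 fits without a library. At 120 min it was lost without GR-KAN1 0 min replicate 1, 0 min replicate 2 or 120 min replicate 1, with limma adjusted p up to 0.144.

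HAT1, the paralogue of HAT2, had 5.95, 11.3 and 4.45 FPKM in GR-KAN1 at 60 min, against 11.5, 14.7 and 13.8 FPKM at 0 min. These libraries did not overlap, and the change from 0 min was called (-0.93, limma adjusted p = 0.0398), but beyond WT it was -0.87 and was not called (limma adjusted p = 0.273). ATHB2 had 12.4, 8.89 and 9.70 FPKM in GR-KAN1 at 30 min, against 5.79, 7.05 and 7.61 FPKM at 0 min, a change beyond WT of 0.80 (95% interval 0.28 to 1.32, limma adjusted p = 0.632). HAT3 had 10.04, 6.83 and 5.26 FPKM at 60 min, against 5.74, 5.37 and 6.19 FPKM at 0 min, which overlap. ATHB4 had 1.1, 1.01 and 1.02 FPKM at 30 min, against 0.433, 0.620 and 0.618 FPKM at 0 min, without overlap and without a call beyond WT (0.59, limma adjusted p = 1.00).

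In GR-AS2 no HD-ZIP II gene was called beyond WT at any time, against a background of 0%, 0.0103% and 0% of all genes. Before adjustment 1, 1 and 0 of the 8 had a p under 0.05, as did 10.6%, 8.83% and 6.74% of all genes tested. HAT22 had 10.5, 12.6 and 12.9 FPKM at 30 min, against 7.22, 4.60 and 6.42 FPKM at 0 min. All 3 were above the 0 min libraries, and the own change was called (0.94, limma adjusted p = 0.0206), while beyond WT it was 0.53 (95% interval -0.06 to 1.13, limma adjusted p = 0.524). HAT2 had 15.1, 12.6 and 10.5 FPKM at 60 min, against 8.30, 8.56 and 6.85 FPKM at 0 min. The groups did not overlap, but neither its own change from 0 min nor its change beyond WT was called. The intervals of the 95% level for ATHB2 in GR-AS2 were -0.40 to 0.65, -0.71 to 0.30 and -0.63 to 0.45 at the 3 times, below the changes of 2.16, 1.76 and 1.69 in GR-STM.

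**Figure D3:**
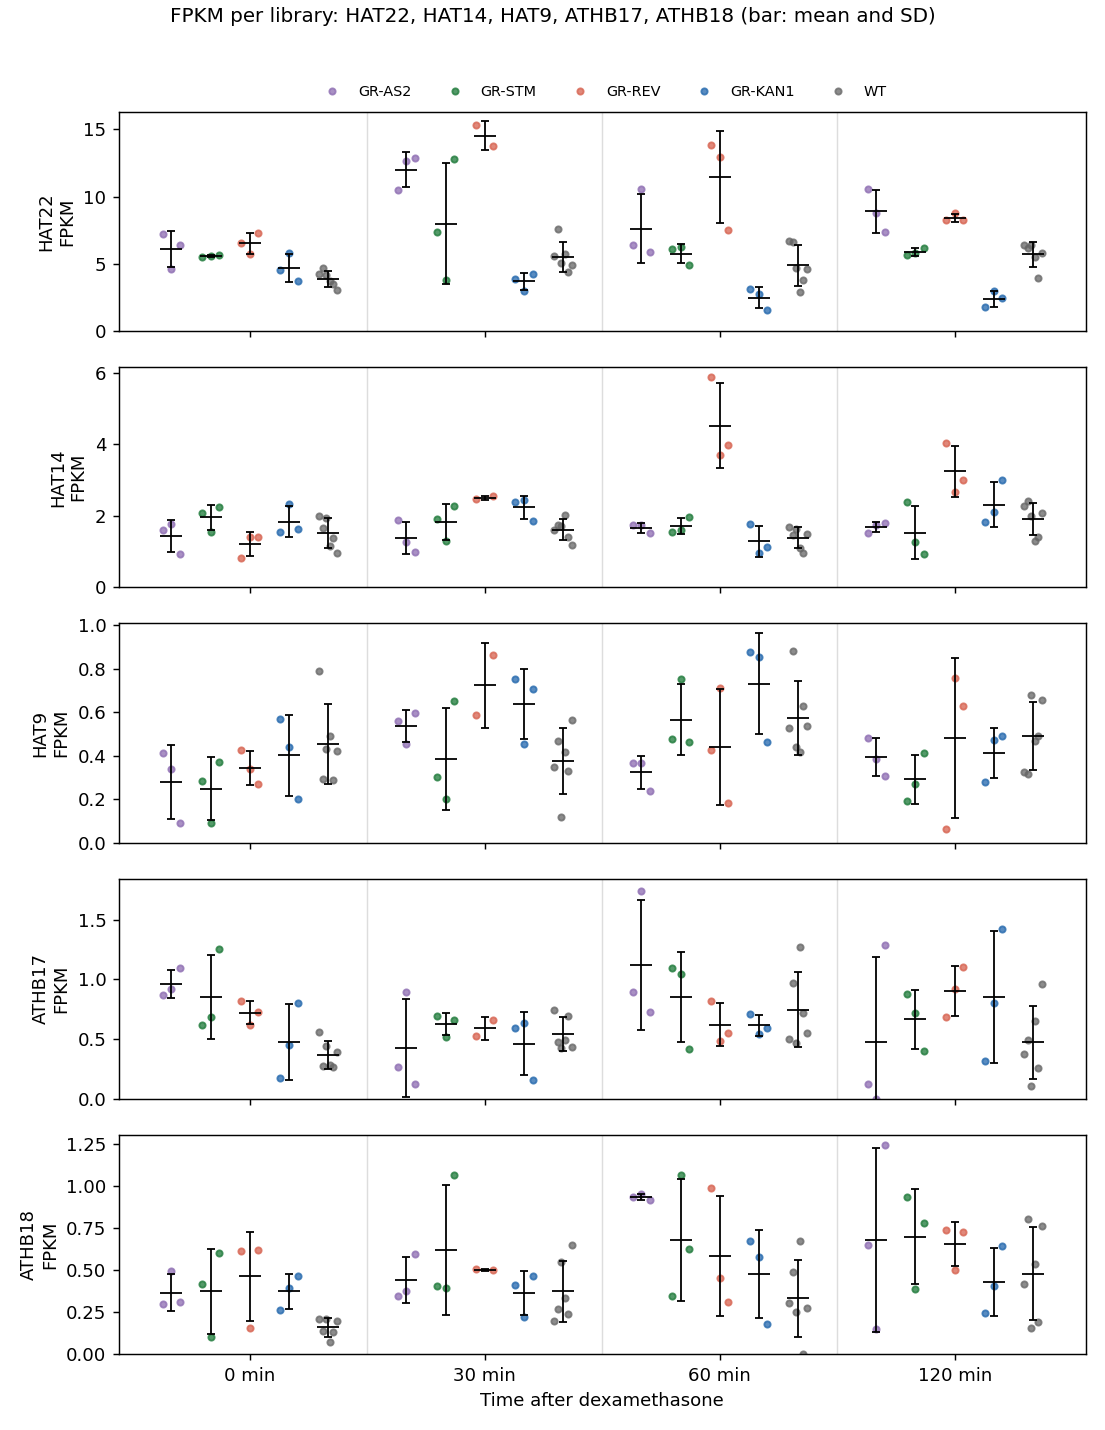
FPKM of HAT22, HAT14, HAT9, ATHB17 and ATHB18 in each of the 71 libraries, by time after dexamethasone, with a point per library and a bar for the group mean and its SD. HAT14 stands highest in GR-REV at 60 min, at 3.69 to 5.89 FPKM, and HAT22 lowest in GR-KAN1 at 60 and 120 min, while HAT9 does not pass 0.882 FPKM.

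ATHB17, HAT9 and ATHB18 had the lowest levels and no call. ATHB17 ranged between 0 and 1.74 FPKM over the 71 libraries and was listed at 0 in 1. Its lowest change beyond WT was -0.92 in GR-AS2 at 30 min (limma adjusted p = 0.440), where it had 0.263, 0.895 and 0.122 FPKM, against 0.871, 0.917 and 1.10 FPKM at 0 min. HAT9, the closest relative of HAT22, had 0.064 to 0.882 FPKM, with its highest group mean of 0.731 FPKM in GR-KAN1 at 60 min. ATHB18 had 0 to 1.24 FPKM and was listed at 0 in 1 library. Tested without the filter on low values, neither was called in any comparison, and the smallest unadjusted p were 0.0300 for HAT9 (GR-REV at 30 min beyond WT, limma adjusted p = 0.880) and 0.0278 for ATHB18 (WT at 120 min, limma adjusted p = 0.557). Read depth is unknown here, so how small a change could have been seen at these levels is known only from the spread between libraries.

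HAT2 had opposite signs beyond WT in GR-REV and GR-KAN1, although at 30 min it was called in GR-REV only. The difference between the changes of these lines, which share no library, tests whether they differ and not their signs. HAT2 was called at each time, with GR-REV minus GR-KAN1 differences of 1.72 (SE 0.28), 2.98 (SE 0.26) and 2.1 (SE 0.26) at 30, 60 and 120 min and limma adjusted p of 0.000505, 8.93e-12 and 1.81e-07. These calls held in every fit without a library and under all 11 alternatives, with adjusted p up to 0.0329, 0.000527 and 0.00414. At 60 min HAT1 (1.65), HAT3 (1.24), HAT14 (1.95) and HAT22 (1.54) were also called, with limma adjusted p of 0.00683, 0.0127, 9.72e-06 and 0.00303. HAT22 was called again at 120 min (1.18, limma adjusted p = 0.0384). The counts were 1, 5 and 2 of the 8 genes tested, against a background of 0.196%, 1.31% and 1.37% of all genes higher in this direction (0.216%, 2.05% and 2.67% in either). HAT1 lost its call without GR-KAN1 60 min replicate 3 (limma adjusted p = 0.0557), and HAT3 without that library or GR-REV 60 min replicate 3 (up to 0.0774). The highest adjusted p over the alternatives were 0.149 for HAT1, 0.170 for HAT3 and 0.158 for HAT22 at 60 min, all where only the groups compared were fitted. HAT22 at 120 min was kept in 3 of 12 fits without a library (limma adjusted p up to 0.135). Within code series Ot79 it was 1.18 with 0.0606, and its adjusted p over the alternatives ran up to 0.0819. ATHB2 was not called between these lines at any time, with differences of 0.87, 0.74 and 0.36.

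Set against GR-REV, GR-STM had the smaller change in HAT2, HAT3, HAT14 and ATHB4. The GR-STM minus GR-REV differences at 60 min were -1.47 (SE 0.26) for HAT2, -2.07 (SE 0.31) for HAT3, -1.77 (SE 0.36) for ATHB4 and -1.70 (SE 0.29) for HAT14, with limma adjusted p of 0.000283, 8.44e-06, 0.00186 and 0.000174. ATHB4 entered the tests through GR-REV at 60 min, so its call here is descriptive too. HAT2 and HAT3 were also called at 30 min (-1.71 and -1.6, limma adjusted p = 0.000754 and 0.0176), and HAT2, HAT3 and HAT14 at 120 min (-0.94, -1.40 and -1.46, limma adjusted p = 0.0425, 0.00333 and 0.0012). These are 2, 4 and 3 of the 8 genes tested, against a background of 0.0567%, 0.727% and 0.922% of all genes lower (0.0618%, 1.38% and 1.99% in either direction). The 60 min calls held in all 12 fits without a library, but where only the groups compared were fitted HAT2 and ATHB4 lost theirs (limma adjusted p = 0.0710 and 0.0583). HAT3 at 30 min was kept in 6 of 11 such fits and HAT2 at 120 min in 3 of 12, with limma adjusted p up to 0.166 and 0.217, and within code series Ot79 they had 0.0564 and 0.0800. Where only the groups compared were fitted, no member was called at 30 or 120 min, with limma adjusted p up to 0.904 for HAT3 at 30 min and 0.242 for HAT2 at 120 min. ATHB2, which was called in both lines, was not called between them. Its differences were 0.49 (95% interval -0.13 to 1.11), 0.68 (0.10 to 1.27) and 0.80 (0.22 to 1.39) at 30, 60 and 120 min, so a difference of 1 log2 unit lies within each interval.

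**Figure D4:**
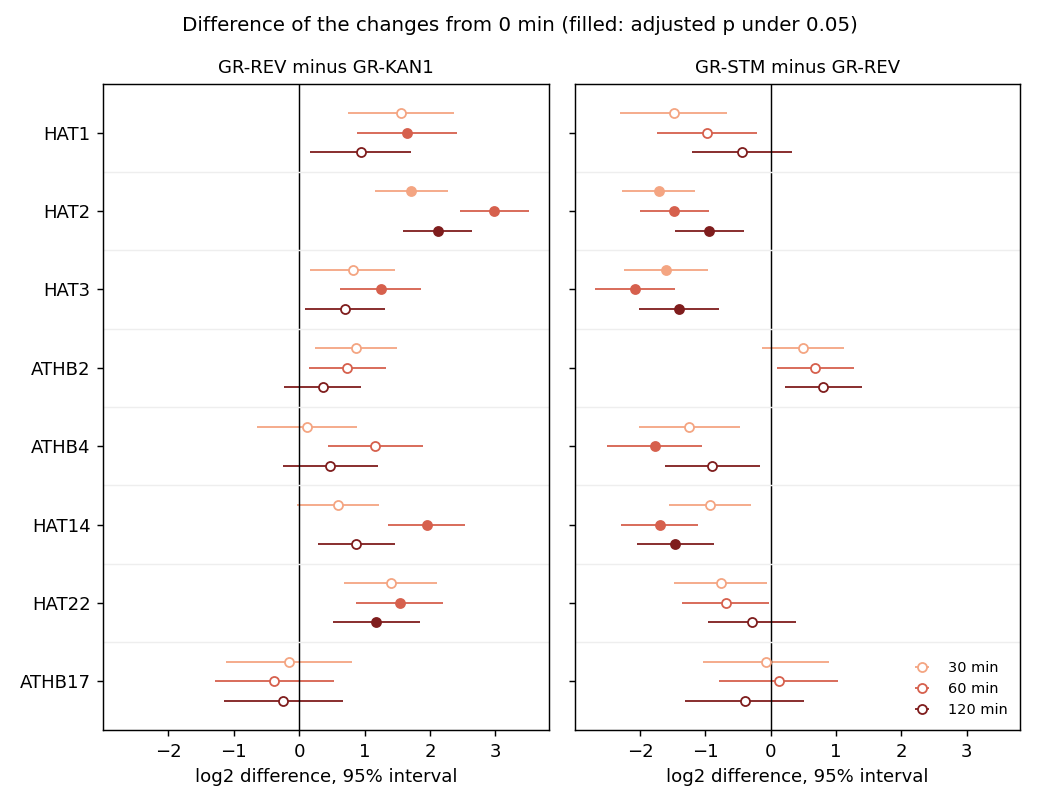
Differences between the changes from 0 min of 2 lines for the 8 genes tested, as log2 values with 95% intervals at 30, 60 and 120 min, with filled points for limma adjusted p under 0.05. HAT2 lies between 1.72 and 2.98 in GR-REV minus GR-KAN1 and between -1.71 and -0.94 in GR-STM minus GR-REV, while ATHB2 has no filled point in either panel.

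The genes around the family were read from lists of HD-ZIP III genes, LITTLE ZIPPER genes and shade pathway genes. None of the 5 HD-ZIP III genes was called beyond WT in any line at any time, and at 60 min their median change was -0.24 in GR-REV and -0.26 in GR-KAN1, against 0.01 and 0.02 for all genes tested. REV itself is the transgene of GR-REV and was higher in that line at 0 min. LITTLE ZIPPER genes encode small proteins that bind and block HD-ZIP III proteins. In GR-REV beyond WT 1 of the 4 was called at 30 min (ZPR1) and 3 at 60 and 120 min (ZPR1, ZPR3 and ZPR4), all higher, against 0.0412%, 0.721% and 0.464% of all genes tested. At 0 min 1 of the 4 (ZPR1) was already called higher in GR-REV than in WT, against 7.81% of all genes tested called in either direction. The list's median difference there was 0.53. In GR-REV ZPR1 had 1120 ± 535 FPKM at 60 min, against 41.5 ± 19.6 FPKM at 0 min (SD, n = 3 each). Its log2 change beyond WT was 4.98 with an SE of 0.34 and a limma adjusted p of 4.30e-16. The list's median change was 1.76, 4.16 and 3.60 at the 3 times, and no LITTLE ZIPPER gene was called beyond WT in GR-AS2, GR-STM or GR-KAN1.

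Of 21 shade pathway genes 19 were tested. In GR-REV beyond WT 2 were higher and 1 lower at 60 min, and 1 (TAA1) was higher at 120 min, 3 and 1 of 19 against 1.18% and 0.799% of all genes called in either direction. TAA1, an enzyme of auxin synthesis, had a change of 1.48 (SE 0.20, limma adjusted p = 1.35e-06), and YUC5, which acts after it in the same route, 1.46 (SE 0.27, 0.000911). PIL1, a bHLH gene induced by shade, had -1.10 (SE 0.26, limma adjusted p = 0.0172). In GR-KAN1 PIF7, a bHLH factor of shade signalling, was lower at 60 min (-0.84), BEE1, a bHLH gene induced by brassinosteroid, was lower at 60 and 120 min (-1.25 and -1.50), and HFR1, an inhibitor of PIF proteins, was higher at 120 min (1.78), with limma adjusted p between 0.00170 and 0.0157. These are 2 of 19 at each time, against 1.05% and 0.830% of all genes. HFR1 was itself called lower in WT at 120 min than at 0 min, 1 of 19 against 0.0670% of all genes. Part of its difference beyond WT in GR-KAN1 is thus the WT change that it subtracts. In GR-STM PIF7 was higher at 60 and 120 min (0.94 and 0.86, limma adjusted p = 0.00577 and 0.0253) and TAA1 lower at 120 min (-1.04, 0.00236), which are 1 and 2 of 19, against 0.876% and 0.819%. No shade pathway gene was called beyond WT at 30 min in any line. The list's medians at 60 min were 0.19 in GR-AS2, -0.33 in GR-STM, -0.22 in GR-REV and -0.54 in GR-KAN1, against 0.01, 0.00, 0.01 and 0.02 for all genes tested.

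Across the 20 group means the members did not move as one. The Pearson correlation of log2 means was 0.93 for HAT3 and ATHB4, 0.84 for HAT1 and HAT2 and 0.74 for ATHB4 and HAT14. It was -0.11 for ATHB4 and HAT22 and -0.03 for HAT3 and HAT22, and ATHB2 had 0.26 with HAT2 and 0.25 with HAT3. These points share lines, baselines and code series, so the values describe the 20 groups. Among the other 19398 genes tested, those most like HAT2 were OFP5 (AT4G18830) at 0.92, HB22 (AT4G24660) at 0.92 and YUC5 (AT5G43890) at 0.90. Those most like HAT3 were AT1G74940 at 0.91, AT5G10570 at 0.87 and AT5G50450 at 0.86.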

How the data were processed

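RNA was sequenced from poly(A)-primed cDNA of Arabidopsis seedlings, per the labels' protocols. The authors deposited FPKM normalized geometrically across libraries, per the series' design text. The submitters' processing notes name TopHat2 2.0.10, Cufflinks and TAIR10. The Cufflinks version and use of strand were not given in the sources used here. Of 22346 entries 14 were placeholders. Depth is unknown. The share of values under 0.5 FPKM at their most common ratio to another library (1% bins) had a median of at most 9.91% in each code series. No whole reads were recovered, and no counting interval is given.

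Groups were line and time from the labels, 20 in all. Across the 71 libraries, limma 3.58.1 (R 4.3.3) was fitted to log2(FPKM + 0.5) with a mean per group, code series as covariate, eBayes with trend and 49 residual degrees of freedom. The fit was tested on simulated data. Benjamini-Hochberg adjustment ran over the 19406 genes tested within each of 25 comparisons. Because of the covariate, a model log2 change can differ from the ratio of 2 means. Every member was named at its called comparisons, and the 3 genes most like each of the 2 members with most calls by Pearson correlation of group means. The members and lists were chosen with earlier results of these data known. TAIR10.1 from RefSeq, read with Biopython 1.88, gave coordinates and sequences, since the table has none. Alternatives were the pseudocount, the filter, the code term, WT replicates 4 to 6, quantile normalization, array weights, outlying libraries, a replicate block, fits of only the groups compared, changes without WT and single libraries left out.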

Additional observations from a re-analysis of the deposited data

Results flagged for a closer look

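One library stood apart from its group in a member's level. HAT22 had 3.94 FPKM in WT 120 min replicate 5, and the other 5 WT libraries at that time had 5.55 to 6.38 FPKM. Of 40 sets of WT values examined in this way, 1 gave such a gap, and chance gives about 1 in 20.

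Several members changed differently in 2 lines by a limma test of the difference itself. Beyond WT in GR-STM, ATHB2 had log2 differences of 2.16, 1.76 and 1.69 at 30, 60 and 120 min. Beyond WT in GR-REV, the values were 1.39 for HAT2 and 1.67 for ATHB2 at 30 min. At 60 min they were 1.66 for HAT2, 1.72 for HAT3, 1.07 for ATHB2, 1.37 for ATHB4 and 1.63 for HAT14, and at 120 min 1.2 for HAT2 and 1.09 for HAT3. Beyond WT in GR-KAN1, HAT2 had -1.32 and HAT22 -1.07 at 60 min, and they had -0.92 and -1.26 at 120 min.

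Between GR-REV and GR-KAN1, HAT2 differed by 1.72 at 30 min, 2.98 at 60 min and 2.1 at 120 min. HAT1 (1.65), HAT3 (1.24), HAT14 (1.95) and HAT22 (1.54) differed at 60 min, and HAT22 (1.18) at 120 min. Between GR-STM and GR-REV, HAT2 had -1.71, -1.47 and -0.94 at 30, 60 and 120 min and HAT3 -1.6, -2.07 and -1.40. ATHB4 had -1.77 at 60 min, and HAT14 had -1.70 at 60 min and -1.46 at 120 min.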

How the results depend on the processing

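No direction reversed in any alternative. Of the single members' calls, 349 of 406 were kept over the alternatives and 421 of 514 where a library was left out. For the 12 alternatives that could be run, the counts of members called below are those that differ from the reported count by more than 1.5 times. Some other counts moved by 1 member, within that bound. With a pseudocount of 1, GR-KAN1 had 1 at 60 and 1 at 120 min. Without the filter, GR-REV at 120 min, GR-KAN1 at 60 min and GR-KAN1 at 120 min had 1 each. With a mean of at least 5 FPKM, GR-REV at 60 min had 3 and GR-STM minus GR-REV at 60 min 2, since fewer members were tested. Without the code series term, the count was 1 for GR-AS2 against WT at 0 min, GR-REV against WT at 0 min, GR-REV at 120 min, GR-KAN1 at 60 min, GR-REV minus GR-KAN1 at 120 min and GR-STM minus GR-REV at 30 min. Without WT replicates 4 to 6, GR-AS2 at 0 min and GR-REV at 120 min had 0, GR-REV had 1 at 30 and 3 at 60 min, and GR-KAN1 at 60 and 120 min, GR-REV minus GR-KAN1 at 120 min and GR-STM minus GR-REV at 30 min had 1. Quantile normalization gave GR-REV minus GR-KAN1 at 30 min 2. Array weights gave 2 of 8 in WT at 120 min, GR-AS2 at 60 min and GR-STM at 60 min, where they called 18.0%, 5.74% and 16.4% of all genes tested, 3 in GR-REV at 60 min, 4 in GR-REV at 120 min and 3 in GR-REV minus GR-KAN1 at 30 min. Without the 5 outlying libraries, GR-REV and GR-KAN1 at 120 min had 1 each. Where only the groups compared were fitted, GR-AS2 at 0 min, GR-STM at 30 min, GR-REV at 30 min and GR-STM minus GR-REV at 30 and 120 min had 0, GR-REV at 120 min, GR-KAN1 at 60 min and GR-REV minus GR-KAN1 at 120 min 1, GR-STM minus GR-REV at 60 min 2, and GR-REV minus GR-KAN1 2 at 30 and 3 at 60 min. Without subtracting WT, GR-AS2 at 30 min had 1 and GR-REV at 30 min 4. Except where stated, the cause was not tested.

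Same-numbered libraries were not treated as pairs. Their deviations from the group means correlated between -0.52 and 0.60 (569 pairs, median 0.01), and in 8 of 190 pairs of groups every correlation was over 0.1. With the replicate block the count was 1 for GR-AS2 at 0 min, GR-REV at 120 min, GR-KAN1 at 60 min and GR-KAN1 at 120 min.

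With single libraries left out the counts were 0 to 2 for GR-AS2 at 0 min, 0 to 2 for GR-REV at 30 min, 4 to 5 at 60 min and 1 to 2 at 120 min, and 1 to 2 and 0 to 2 for GR-KAN1 at 60 and 120 min. They were 3 to 5 and 1 to 2 for GR-REV minus GR-KAN1 at 60 and 120 min, and 1 to 2 and 2 to 3 for GR-STM minus GR-REV at 30 and 120 min. A group left with 1 library is assumed to vary like the others. Low levels, whole seedlings, unknown depth and 2 to 3 libraries per GR group limit the precision of every value.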
